A study of Rattus norvegicus with 60 samples.

Results

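Metabotropic glutamate receptors are described here through 9 probe sets of 6 genes of the family, Grm2, Grm3, Grm4, Grm5, Grm7 and Grm8, out of 14217 genes named on a rat oligonucleotide array of 31042 probe sets. A probe set is the array's unit for a transcript, and all probe sets that carry the symbol of 1 of these genes were taken, whatever their values. Grm3, Grm2, Grm4 and Grm7 have 1 probe set each, Grm5 has 2 and Grm8 has 3. After a filter on low signal (mean log2 value at or above 7.68), 8 of the 9 entered the tests among 18625 probe sets. The third Grm8 probe set, 1371243_at, has a mean of 6.83 and lies below that limit, so its values are given with no filter applied. Grm6, another receptor of the family, was not among the chosen genes, and its 3 probe sets (means from 5.70 to 6.35) lie below the limit too.

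RNA came from striatum, hippocampus, amygdala, accumbens and frontal cortex of 12 adult rats, 1 array for each of the 5 regions of each rat. The NP group holds 6 rats of a line selected against alcohol preference, and the congenic group holds 6 NP.P rats. The labels do not say what was transferred; from background knowledge of this line, a stretch of chromosome 4 from rats bred for alcohol preference (P) was placed on the NP background. No alcohol or drug is named in the labels for either group, both were accustomed to handling before decapitation, and their sex is not given there. The tissue is whole dissected regions, so fewer cells that express a receptor and less of its RNA in each cell cannot be told apart.

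These receptors bind the transmitter glutamate and signal through G proteins, unlike the glutamate receptors that are ion channels. The group I receptor encoded by Grm5 acts mainly after the synapse and couples to Gq, phospholipase C and calcium release. The group II receptors (Grm2 and Grm3) and the group III receptors (Grm4, Grm7 and Grm8) couple to Gi/o proteins, and most of them lower transmitter release from nerve endings. In P rats, a premature stop codon in Grm2 has been described, and the receptor is studied for that reason in models of alcohol preference.

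The members lie on 4 chromosomes of the GRCr8 rat assembly: Grm5 on chromosome 1, Grm3, Grm8 and Grm7 on chromosome 4, Grm2 on chromosome 8 and Grm4 on chromosome 20. No genome build for the array's probes was used, so probe positions are not stated. RefSeq promoter sequences of the GRCr8 assembly were held for 3 of the 6 genes. The 250 bases before the start of Grm5 and of Grm7 are shown because these genes lay in opposite directions in striatum, Grm5 higher and Grm7 lower, though the Grm7 call did not hold under each alternative described with its values. Both are written 5′ to 3′ on the gene's strand, the plus strand, and capitals mark GGGCGG on either strand, the core that Sp1 family factors bind.
Grm5, chr1:150733503-150733752: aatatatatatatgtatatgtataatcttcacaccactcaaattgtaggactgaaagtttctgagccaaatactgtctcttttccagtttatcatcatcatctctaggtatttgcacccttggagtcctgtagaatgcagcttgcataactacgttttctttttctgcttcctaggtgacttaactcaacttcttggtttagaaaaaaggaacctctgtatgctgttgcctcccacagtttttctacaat
Grm7, chr4:145286476-145286725: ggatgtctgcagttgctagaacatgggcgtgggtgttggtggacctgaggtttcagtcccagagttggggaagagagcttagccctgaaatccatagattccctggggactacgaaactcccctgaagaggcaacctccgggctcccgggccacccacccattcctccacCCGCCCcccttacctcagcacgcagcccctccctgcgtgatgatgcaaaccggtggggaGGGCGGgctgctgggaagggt
The Grm5 window had a GC content of 36.4% and the Grm7 window one of 62.0%. GGGCGG occurred 2 times in the Grm7 window and not in that of Grm5, and 30.5% of 33469 rat promoter windows of this length hold it on at least 1 strand. Searched on both strands, neither window held TATAAA (12.9% of windows), CCAAT (34.0%) or TGACGTCA (1.59%), which concerns these letters in this window only.

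Before the receptors are compared, 7 of the 60 arrays need naming, because their expression profiles resembled those of their labelled region less than the remaining arrays did. They are the arrays labelled amygdala congenic 3, hippocampus congenic 3, amygdala NP 6, accumbens NP 8, hippocampus NP 8, accumbens congenic 9 and hippocampus NP 11. The array labelled amygdala congenic 3 correlated best with the hippocampus profile (r = 0.70) and the array labelled hippocampus congenic 3 with the amygdala profile (r = 0.74). The array labelled accumbens NP 8 likewise correlated best with the hippocampus profile (r = 0.65), and hippocampus NP 8 with the accumbens profile (r = 0.39). Results were therefore also taken without these 7. The medium spiny list, 7 markers of the projection neurons of the striatum, had a median log2 level of 12.34 in striatum and 11.74 in accumbens, against 10.60 in amygdala and 8.90 and 9.09 in hippocampus and frontal cortex. The list of 6 hippocampal markers was highest in hippocampus (median 10.12), and that of 5 cortical markers was highest in frontal cortex (10.08) with striatum next (9.70).

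**Figure D1:**
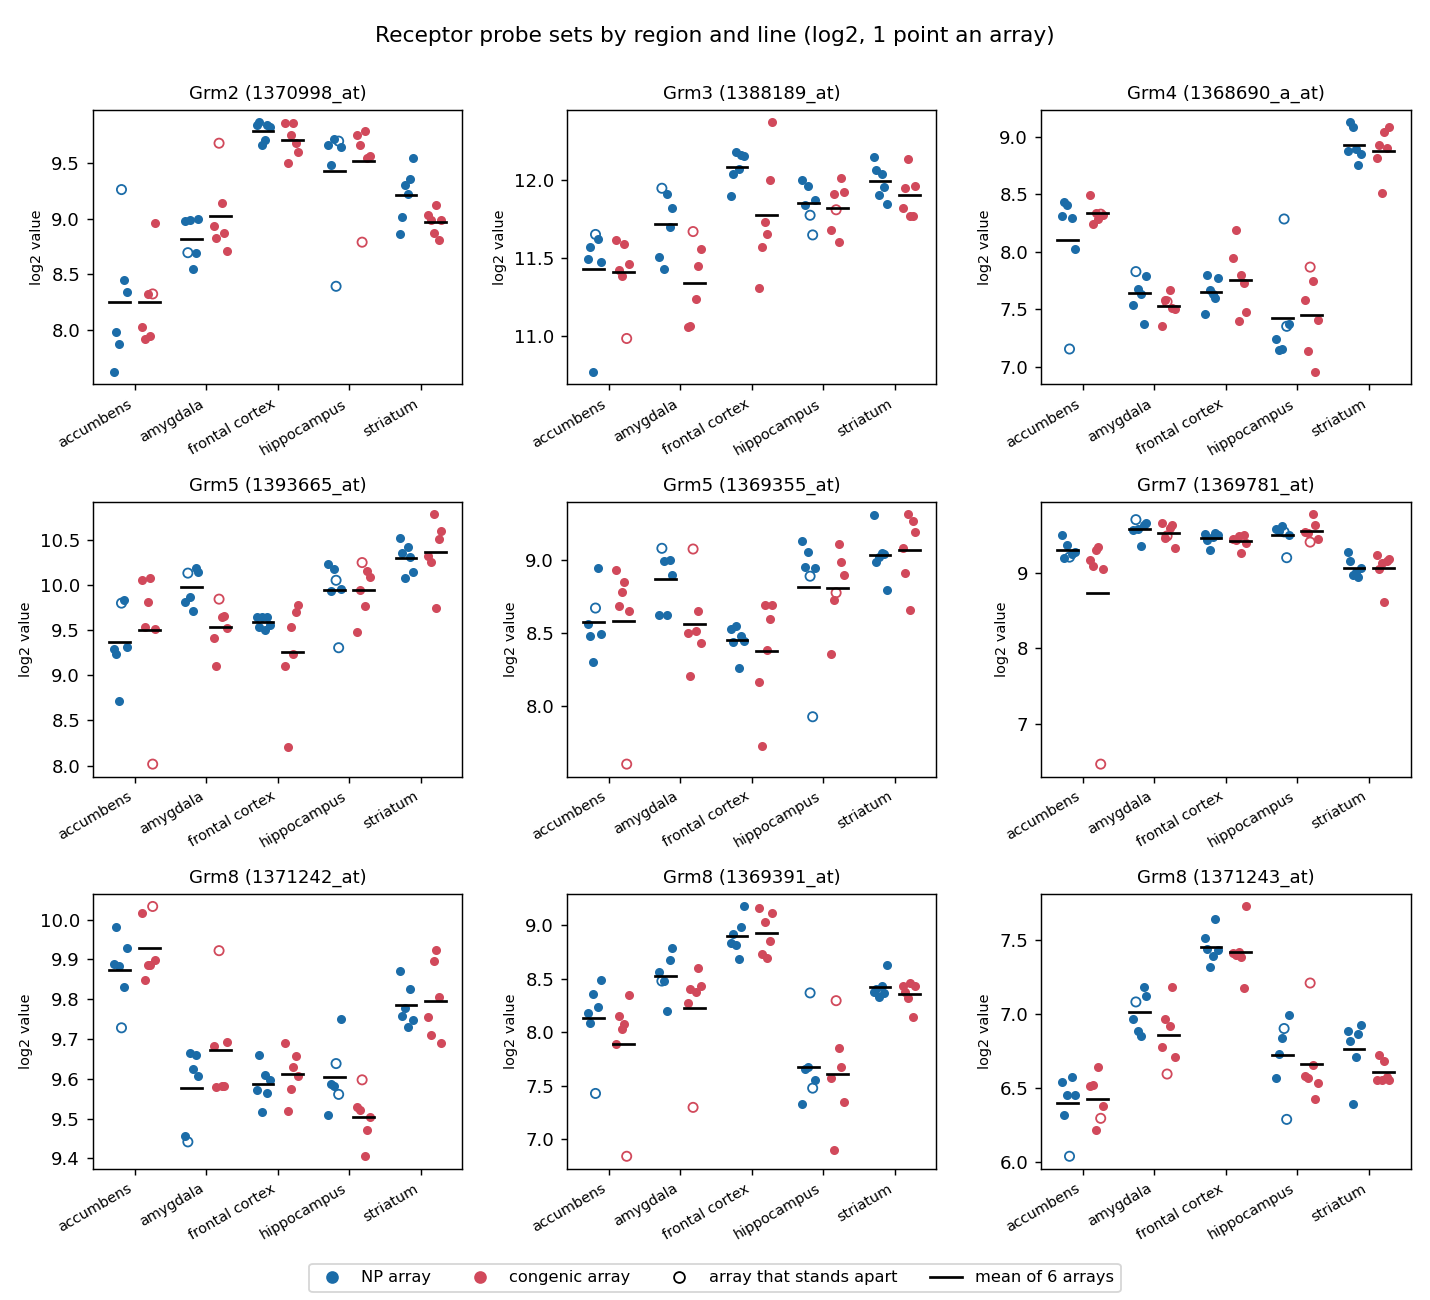
Deposited log2 value (vertical axes, each with its own range) of each of the 9 receptor probe sets on each of the 60 arrays, by region; 1 point is 1 array, open points are the 7 arrays that stand apart, and black lines are means of 6 arrays. Grm4 is highest in striatum, Grm2 is lowest in accumbens, and 1 open point lies far below the rest for Grm7 in accumbens (6.47).

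Calls between regions were common among the receptors. Each region was set against the mean of the other 4 in 1 limma fit with the animal as a block. Of the 8 tested probe sets, 7 were called (adjusted p under 0.05) in accumbens, where 62.4% of all tested probe sets were called. Of these 7, 2 were higher (23.5% of all) and 5 lower (38.9% of all). In amygdala 4 were called (47.8% of all), 1 higher (29.1%) and 3 lower (18.6%). In frontal cortex 7 were called (61.3% of all), 3 higher (35.6%) and 4 lower (25.7%). In hippocampus 4 were called (54.3% of all), 1 higher (33.1%) and 3 lower (21.2%). In striatum 6 were called (69.6% of all), 5 higher (26.3%) and 1 lower (43.3%). The members were thus called about as often as other transcripts of these regions. Without the 7 arrays the counts were 7, 6, 7, 8 and 7 in the same order of regions, against 70.4%, 62.8%, 72.4%, 64.8% and 78.2% of all probe sets.

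Between single regions, the accumbens differed from the amygdala for 5 of the 8 members (58.9% of all), from frontal cortex for 6 (65.8%), from hippocampus for 7 (63.7%) and from striatum for 7 (55.5%). The amygdala differed from frontal cortex for 4 (45.4% of all), from hippocampus for 3 (25.7%) and from striatum for 6 (66.7%). Frontal cortex differed from hippocampus for 3 (43.5% of all) and from striatum for 7 (69.7%), and the hippocampus differed from striatum for 6 (68.6%).

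On the log2 scale, the median difference of the 8 from the other regions was 0.21 in striatum, 0.13 in hippocampus, 0.01 in frontal cortex, -0.06 in amygdala and -0.35 in accumbens. Over all tested probe sets it was -0.07, 0.04, 0.03, 0.04 and -0.05 in this order. With the 7 arrays left out, the median of the 8 was 0.19, 0.22, -0.02, -0.11 and -0.15 in the same order. Over all tested probe sets it was then -0.07, 0.03, 0.03, 0.04 and -0.06. The split of all calls into higher and lower moved with the scaling. The share called higher was 37.6% in accumbens, 61.0% in amygdala and 60.9% in hippocampus as deposited, and 53.7%, 48.4% and 48.0% after quantile normalization.

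**Figure D2:**
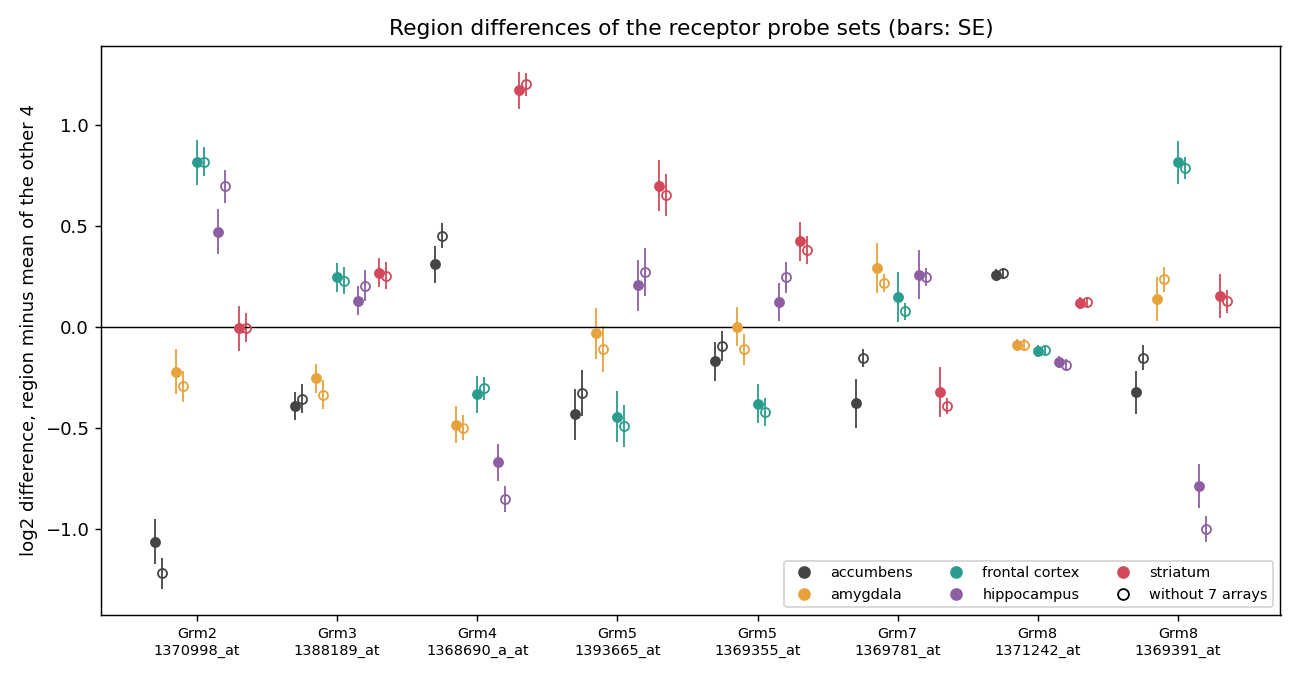
Log2 difference of each region from the mean of the other 4 (vertical axis) for the 8 tested probe sets; filled points use all arrays, open points leave out the 7 arrays that stand apart, and bars are standard errors. The widest spreads are those of Grm2 (0.81 in frontal cortex to -1.06 in accumbens) and Grm4 (1.17 in striatum to -0.67 in hippocampus).

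Grm2, the group II receptor that acts mainly as an autoreceptor on glutamate endings, was highest in frontal cortex and lowest in accumbens. In frontal cortex its log2 value ran from 9.50 to 9.87 over 12 arrays, with a median of 9.79. In accumbens it ran from 7.62 to 9.26 with a median of 8.17. The arrays of the 2 regions did not overlap, and the highest accumbens value is the array labelled NP 8, which stands apart. The share of all tested probe sets whose arrays separate 2 regions was not counted, here or for the other members.

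Against the other regions, Grm2 was 1.76-fold higher in frontal cortex (log2 difference 0.81 ± 0.11, SE, adjusted p = 2.28e-08) and higher in hippocampus (0.47 ± 0.11, adjusted p = 4.25e-04). It was 2.08-fold lower in accumbens (-1.06 ± 0.11, adjusted p = 3.33e-11). Without the 7 arrays the hippocampus difference was 0.69 and the accumbens difference -1.22, both called. In amygdala it lay at -0.22 (adjusted p = 0.101), which passed at -0.29 without the 7 arrays (adjusted p = 0.00111) and also without amygdala congenic 3 alone (-0.31, adjusted p = 0.0174) or hippocampus NP 8 alone (-0.25, adjusted p = 0.0338).

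In order of their means, the regions ran frontal cortex (9.75), hippocampus (9.48), striatum (9.09), amygdala (8.92) and accumbens (8.25). Of the neighbours in this order, frontal cortex and hippocampus (difference 0.27, adjusted p = 0.115) and striatum and amygdala (0.17, adjusted p = 0.286) did not differ beyond their spread, though the second pair passed without the 7 arrays (0.23, adjusted p = 0.0229). The step from hippocampus to striatum (0.38, adjusted p = 0.0158) and that from amygdala to accumbens (0.67, adjusted p = 7.88e-05) passed. In all, 8 of the 10 pairs of regions differed for Grm2.

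Grm3, the group II receptor that astrocytes express as well as neurons, had narrower differences. In order of their means, striatum (11.95) was followed by frontal cortex (11.93), hippocampus (11.84), amygdala (11.53) and accumbens (11.42). Neighbours in this order did not differ beyond their spread except hippocampus and amygdala (0.31 ± 0.09, adjusted p = 0.00735). Their arrays still overlapped, amygdala running from 11.06 to 11.95 and hippocampus from 11.60 to 12.01.

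Grm3 was 1.20-fold higher in striatum than in the other regions (0.27 ± 0.07, adjusted p = 7.66e-04) and 1.18-fold higher in frontal cortex (0.24 ± 0.07, adjusted p = 0.00242). It was lower in accumbens (-0.39 ± 0.07, adjusted p = 5.21e-06) and in amygdala (-0.25 ± 0.07, adjusted p = 0.00259). The list of 7 astrocyte markers was highest in hippocampus (median level 12.87) and amygdala (12.79) and lowest in striatum (12.46), with accumbens (12.57) and frontal cortex (12.56) between, an order different from that of Grm3. In hippocampus Grm3 lay at 0.13 (adjusted p = 0.109) and passed without the 7 arrays (0.20, adjusted p = 0.0185).

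Grm4, a group III receptor of nerve endings known for its presence in the basal ganglia, stood out in striatum. Its log2 value ran from 8.51 to 9.13 in striatum, with a median of 8.90, and from 7.15 to 8.49 in accumbens, with a median of 8.32. In amygdala it ran from 7.36 to 7.83, in frontal cortex from 7.40 to 8.19, and in hippocampus from 6.96 to 8.29. Every striatal array lay above every array of the other regions, and the share of all probe sets that do so was not counted.

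The striatal difference was 1.17 ± 0.09 (2.25-fold, adjusted p = 1.51e-15), the largest among the 8 members, and accumbens was higher as well (0.31 ± 0.09, 1.24-fold, adjusted p = 0.00297). Hippocampus (-0.67 ± 0.09), amygdala (-0.48 ± 0.09) and frontal cortex (-0.33 ± 0.09, adjusted p = 0.00158) were lower. The regions in which Grm4 was higher, striatum and accumbens, are also those with the highest medium spiny marker levels given above, and the part of those cells in the difference was not tested. The arrays labelled accumbens NP 8 (7.15) and hippocampus NP 8 (8.29) lay outside the ranges of the other NP arrays of their regions. Without the 7 arrays the accumbens difference was 0.45 and the hippocampus difference -0.85. Striatum stood above accumbens (0.69, adjusted p = 1.90e-06) and accumbens above frontal cortex (0.51, adjusted p = 1.32e-04), whereas the steps from frontal cortex to amygdala (0.12, adjusted p = 0.420) and from amygdala to hippocampus (0.15, adjusted p = 0.385) did not pass. The last passed without the 7 arrays (0.28, adjusted p = 0.00371).

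Grm7, a group III receptor of low glutamate affinity that sits in the active zone of nerve endings, had modest region differences. Its log2 value had medians of 9.58 in amygdala, 9.54 in hippocampus, 9.46 in frontal cortex, 9.23 in accumbens and 9.10 in striatum. In striatum it ran from 8.61 to 9.28 and in frontal cortex from 9.26 to 9.52, so that these regions overlapped only at their edges. By mean the order was amygdala, hippocampus, frontal cortex, striatum and accumbens, and of the neighbours only frontal cortex and striatum differed beyond their spread (0.37 ± 0.16, adjusted p = 0.0299). With the 7 arrays left out, striatum lay below accumbens (-0.19, adjusted p = 0.00192).

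Grm7 was lower in striatum (-0.32 ± 0.12, 1.25-fold, adjusted p = 0.0190) and lower in accumbens (-0.38 ± 0.12, adjusted p = 0.00698). The accumbens value rests in large part on the array labelled congenic 9 at 6.47, where the other 11 accumbens arrays lay at 9.05 or above. Without that array alone the accumbens difference was -0.14, still called (adjusted p = 0.00531), and hippocampus was called higher (0.20, adjusted p = 6.86e-05). Hippocampus was otherwise at 0.26 (adjusted p = 0.0692) and also passed without hippocampus NP 11 (0.30, adjusted p = 0.0489). In amygdala Grm7 was higher by 0.29 ± 0.12 (adjusted p = 0.0460). This call lay close to the threshold and ended when any of 10 of the 12 animals was left out (adjusted p from 0.0521 to 0.0775). Among single arrays it ended without amygdala NP 6 (0.28, adjusted p = 0.0662), hippocampus NP 11 (0.28, adjusted p = 0.0536) or hippocampus congenic 3 (0.29, adjusted p = 0.0513), and with quantile normalization (0.25, adjusted p = 0.113). The striatal call ended with quantile normalization as well (-0.27, adjusted p = 0.0622), and without animal 4 (-0.27, adjusted p = 0.0640). Without all 7 arrays amygdala (0.22), hippocampus (0.25), accumbens (-0.15) and striatum (-0.39) were all called.

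Grm8, a group III receptor of nerve endings with high glutamate affinity, gave different region patterns by its 3 probe sets. The brightest, 1371242_at, was highest in accumbens, where it ran from 9.73 to 10.03 with a median of 9.89, and lowest in hippocampus, from 9.41 to 9.75 with a median of 9.55. Probe set 1369391_at was highest in frontal cortex, from 8.69 to 9.18 with a median of 8.89, and lowest in hippocampus, from 6.90 to 8.37 with a median of 7.61. The frontal cortex and hippocampus arrays of 1369391_at did not overlap, and the accumbens and hippocampus arrays of 1371242_at overlapped through the accumbens array labelled NP 8 (9.73) and 1 hippocampus array at 9.75.

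By 1371242_at, Grm8 was 1.20-fold higher in accumbens (0.26 ± 0.03, adjusted p = 3.39e-10) and higher in striatum (0.12 ± 0.03, adjusted p = 4.18e-04). It was lower in hippocampus (-0.17 ± 0.03), frontal cortex (-0.12 ± 0.03) and amygdala (-0.09 ± 0.03, adjusted p = 0.0145). The amygdala call ended without the array labelled amygdala NP 6 (-0.07, adjusted p = 0.0607) and without animal 5 (-0.07, adjusted p = 0.0593). In its order of means, accumbens (9.90) stood above striatum (9.79, adjusted p = 0.0116) and striatum above amygdala (9.62, adjusted p = 1.62e-04). The steps from there to frontal cortex (9.60) and hippocampus (9.56) lay within the spread.

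By 1369391_at, the gene was 1.76-fold higher in frontal cortex (0.81 ± 0.11, adjusted p = 9.96e-09), 1.72-fold lower in hippocampus (-0.78 ± 0.11, adjusted p = 4.77e-08) and lower in accumbens (-0.32 ± 0.11, adjusted p = 0.00875). The accumbens call ended without the array labelled congenic 9 alone (-0.22, adjusted p = 0.0525) but held when all 7 arrays were left out. The hippocampus difference was -0.997 without the 7 arrays. In amygdala it lay at 0.14 (adjusted p = 0.288) and passed without the array labelled congenic 3 (0.26, adjusted p = 0.0272). In striatum it lay at 0.15 (adjusted p = 0.201) and passed without the 7 arrays (0.13, adjusted p = 0.0347). Of neighbours in the order of its means, striatum (8.39) and amygdala (8.38) did not differ beyond their spread (adjusted p = 0.947), and the other 3 steps passed. The dim probe set 1371243_at was likewise highest in frontal cortex (0.76 ± 0.06) and lowest in accumbens (-0.53 ± 0.06) with no filter applied.

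The probe sets of Grm8 thus went in opposite directions in frontal cortex and accumbens. Over 60 arrays, 1369391_at and 1371243_at correlated at r = 0.72, 1371242_at and 1371243_at at -0.48, and 1371242_at and 1369391_at at -0.13. The arrays share animals and regions, so these correlations describe the arrays only. Which transcripts of Grm8 each probe set reads is not stated in the files used here.

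**Figure D3:**
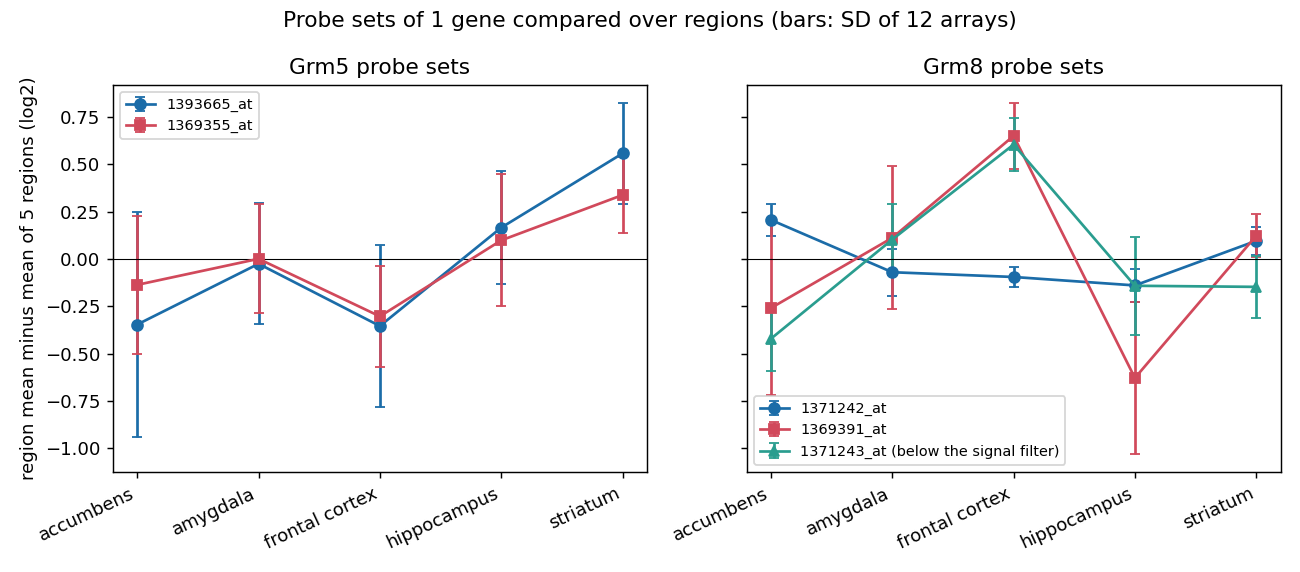
Region mean minus the mean of the 5 regions (vertical axis, log2) for the 2 probe sets of Grm5 (left) and the 3 of Grm8 (right); bars are SDs of 12 arrays. The Grm5 probe sets run together, whereas 1371242_at of Grm8 is low in frontal cortex and high in accumbens, opposite to the other 2.

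Grm5, the group I receptor that couples to Gq, was highest in striatum by both probe sets. The brighter one, 1393665_at, had a log2 value of 9.75 to 10.78 in striatum with a median of 10.34, and of 8.21 to 9.78 in frontal cortex with a median of 9.55. In accumbens it ran from 8.02 to 10.07, in amygdala from 9.10 to 10.19 and in hippocampus from 9.30 to 10.25. Striatum and frontal cortex overlapped only at their edges, and striatum overlapped with each of the other regions.

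The striatal difference was 0.70 ± 0.13 for 1393665_at (1.62-fold, adjusted p = 3.91e-06) and 0.42 ± 0.10 for 1369355_at (1.34-fold, adjusted p = 1.33e-04). Frontal cortex was lower by both, at -0.44 ± 0.13 (adjusted p = 0.00227) and -0.38 ± 0.10 (adjusted p = 6.61e-04). Accumbens was lower by 1393665_at alone (-0.43 ± 0.13, adjusted p = 0.00285), with 1369355_at at -0.17 (adjusted p = 0.118). Without the array labelled hippocampus NP 11, 1369355_at passed in accumbens (-0.19, adjusted p = 0.0426) and in hippocampus (0.22, adjusted p = 0.0326). Both probe sets were called higher in hippocampus, 1393665_at by 0.27 (adjusted p = 0.0431) and 1369355_at by 0.24 (adjusted p = 0.00597), when the 7 arrays were left out. The probe sets correlated at r = 0.92 over the 60 arrays.

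In order of means for 1393665_at, striatum (10.34) stood above hippocampus (9.94, difference 0.39 ± 0.16, adjusted p = 0.0271). Amygdala (9.75), accumbens (9.43) and frontal cortex (9.42) followed without a step beyond the spread between neighbours. The accumbens mean includes the array labelled congenic 9 at 8.02, where the other congenic arrays lay at 9.51 or above. Amygdala minus accumbens was 0.32 with all arrays and 0.17 without the 7 (adjusted p = 0.296). Accumbens, which like striatum is rich in medium spiny neurons, was thus at the low end for Grm5 by 1393665_at and at the high end for Grm4. By 1369355_at without the 7 arrays, amygdala minus accumbens was -0.01 (adjusted p = 0.917). Accumbens then lay above frontal cortex by 0.26 (adjusted p = 0.00936), so the low place of accumbens did not hold for both probe sets.

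Between the lines, the question was whether any receptor differed in rats that carry the P segment of chromosome 4. None of the 8 was called by limma in the mean over regions, where 23 probe sets (0.123% of all) were called. None was called in accumbens (0.00537% of all), amygdala (0.0322%), frontal cortex (0.0537%), hippocampus (0.00537%) or striatum (0.0644%) either. At an unadjusted p under 0.05 there were 2 of the 8 in the mean over regions (5.33% of all tested probe sets), 3 in amygdala (5.96%), 1 in frontal cortex (6.38%) and 1 in striatum (4.86%). There were 0 in hippocampus (3.95%) and 0 in accumbens (1.97%). Those in amygdala include both Grm5 probe sets, which read the same gene and correlated at r = 0.92 over the 60 arrays. The exact permutation test over the 12 animal means, 924 splits of the animals, called 0 of all 18625 probe sets, with 1082 at an unadjusted p under 0.05. The smallest p it can give is 0.00216. Adjusted over 18625 probe sets, a p of this size is called only where many probe sets reach it together. The count of 0 therefore does not show that the lines are alike. The median difference of the 8 was -0.09 in the mean over regions, against -0.002 over all tested probe sets.

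**Figure D4:**
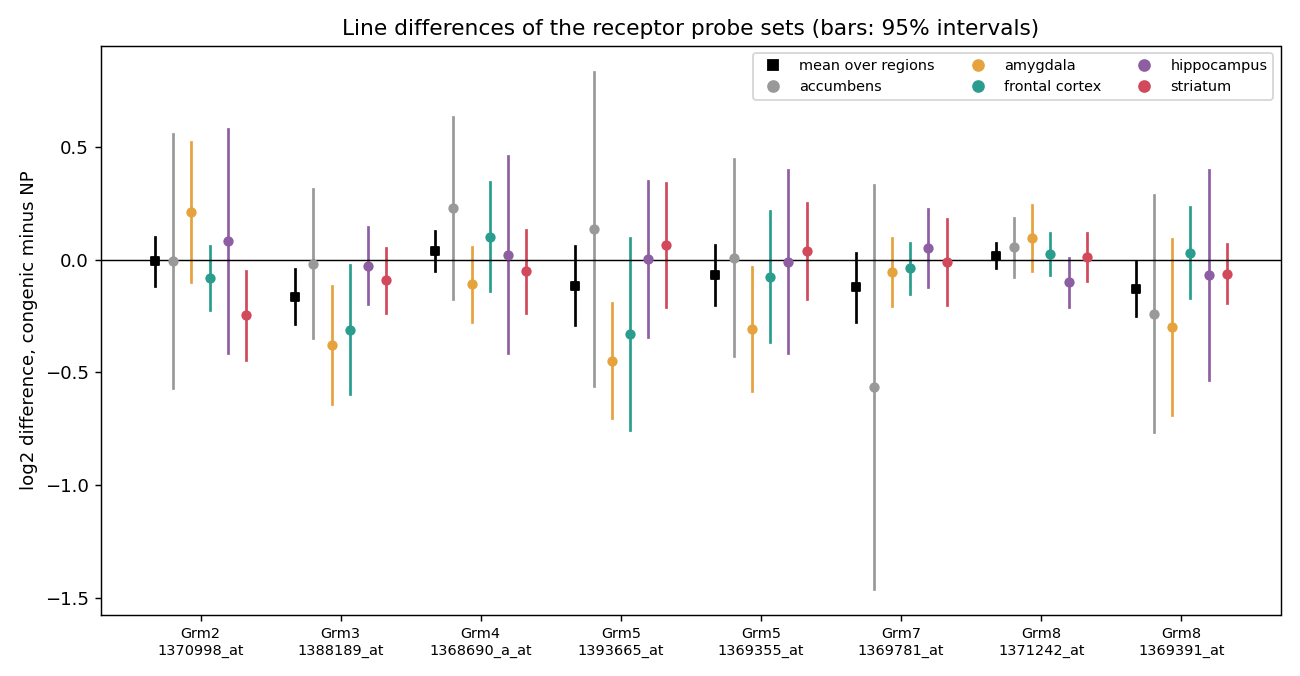
Congenic minus NP difference (log2, vertical axis) of the 8 tested probe sets in the mean over the 5 regions of each animal (squares) and in each region (circles); bars are 95% confidence intervals from limma. No probe set was called, and the widest interval is that of Grm7 in accumbens (-1.46 to 0.33).

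Grm2, averaged over regions, had close levels in the lines. Its animal means ran from 8.99 to 9.27 in NP (median 9.07) and from 8.98 to 9.17 in congenic rats (median 9.10). The lines overlapped almost wholly. The difference was -0.01 ± 0.05 (adjusted p = 0.992), with a 95% interval from -0.12 to 0.10. Grm2 lies on chromosome 8, not on chromosome 4, from which the P stretch of the congenic rats is said to come. The Grm2 allele of these rats was not examined, so the values are no result about the stop codon of P rats.

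In striatum Grm2 ran from 8.86 to 9.54 in NP (median 9.26) and from 8.81 to 9.13 in congenic rats (median 8.99). The NP values reached higher, but the lower NP arrays lay within the congenic range. The striatal difference was -0.25 ± 0.09 (unadjusted p = 0.0169, adjusted p = 0.988), so it was not called. In the other regions it lay between -0.08 (frontal cortex) and 0.21 (amygdala). The amygdala value was 0.06 without the 7 arrays.

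Grm3 had the smallest unadjusted p of the members in the mean over regions. Its animal means ran from 11.65 to 11.89 in NP (median 11.83) and from 11.50 to 11.86 in congenic rats (median 11.61), so the lines overlapped. The difference was -0.16 ± 0.06 (unadjusted p = 0.0119, adjusted p = 0.884), with an exact permutation p of 0.0303 (2-sided, adjusted p = 0.849). By region it was -0.38 ± 0.12 in amygdala (unadjusted p = 0.00821, adjusted p = 0.541) and -0.31 ± 0.13 in frontal cortex (adjusted p = 0.764). It was -0.09 in striatum, -0.03 in hippocampus and -0.02 in accumbens. The accumbens value was 0.11 without the 7 arrays.

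Grm5 in amygdala had the smallest unadjusted p of any member in a single region. Probe set 1393665_at ran from 9.71 to 10.19 in NP (median 10.00) and from 9.10 to 9.84 in congenic rats (median 9.58). The lines overlapped through the array labelled congenic 3, the highest congenic value, which stands apart. Without it and NP 6, congenic arrays ran from 9.10 to 9.65 and NP arrays from 9.71 to 10.19, with no overlap. The dropped arrays were chosen by a rule added after the data were seen. The share of all tested probe sets whose remaining amygdala arrays separate the lines was not counted. The separation by itself therefore does not show a line difference.

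The amygdala difference was -0.45 ± 0.12 (1.36-fold, unadjusted p = 0.00209, adjusted p = 0.402), and -0.48 without the 2 arrays (adjusted p = 0.183). The second Grm5 probe set lay at -0.31 ± 0.13 (adjusted p = 0.777), and at -0.37 without the 2 arrays (adjusted p = 0.240). Neither was called. The medium spiny markers moved the same way in amygdala, with a median of 10.84 in NP (10.28 to 12.03) and of 10.35 in congenic rats (8.81 to 10.85). Without the 2 arrays these medians were 10.64 and 10.41. Their part in the Grm5 difference was not tested.

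In accumbens the difference for Grm5 1393665_at was positive, and its size moved with the array labelled congenic 9, which lay at 8.02. The difference was 0.14 ± 0.32 with all arrays, 0.43 ± 0.19 without congenic 9 alone (adjusted p = 0.783) and 0.52 ± 0.17 without both congenic 9 and NP 8 (unadjusted p = 0.00894, adjusted p = 0.727). In frontal cortex it was -0.33 ± 0.20, in hippocampus 0.00 ± 0.16 and in striatum 0.06 ± 0.13.

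Whether the line difference varied between regions was tested as an interaction. It was called for none of the 8 members (adjusted p of at least 0.998) and for 0% of all tested probe sets, with 726 of these at an unadjusted p under 0.05. Without the 7 arrays the interaction was called for 0.0107% of all and again for none of the members. There Grm5 1393665_at had the smallest p of the members (unadjusted p = 9.96e-04, adjusted p = 0.184), with its regions spanning 1.00 log2 units.

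The group III receptors had small line differences. Grm4 lay at 0.04 ± 0.04 in the mean over regions and Grm8 at 0.02 ± 0.03 by 1371242_at and at -0.13 ± 0.06 by 1369391_at (unadjusted p = 0.0418, adjusted p = 0.911). Grm7 lay at -0.12 ± 0.07, and at -0.04 ± 0.03 without the 7 arrays. Its accumbens difference of -0.56 ± 0.41 became -0.13 ± 0.07 without the arrays labelled congenic 9 and NP 8. Grm8 1371242_at in hippocampus lay at -0.10 ± 0.05 (adjusted p = 0.982).

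Of the 3 members on chromosome 4, none lay among the called genes in the order of its 590 measured genes, 13 of which were called between the lines. Grm3 (place 48) and Grm8 (place 120) lie before Akr1b1, the first called gene, with 99 and 27 measured genes in between. Grm7 (place 405) lies after Magi1, the last called gene, with 25 measured genes in between.

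Genes that work with these receptors were followed through lists from which 37 genes passed the filter, each by its brightest probe set. They comprise glutamate supply and clearance, Gq signalling, Gi/o signalling, and scaffolds and binding partners. None of the 37 was called between the lines, in the mean, in any region or for the interaction, with all arrays or without the 7. Between regions, 13 were higher and 13 lower in striatum, where 26.3% and 43.3% of all tested probe sets were. In hippocampus 15 were higher and 11 lower (33.1% and 21.2% of all), and in frontal cortex 16 and 6 (35.6% and 25.7%). In amygdala 6 were higher and 9 lower (29.1% and 18.6% of all), which became 8 and 14 without the 7 arrays. In accumbens 3 were higher and 22 lower (23.5% and 38.9% of all). These shares over all probe sets are also the background for the counts of the single gene lists. They include dimmer probe sets, whereas each list gene was read by its brightest, so the background is not matched for signal. In accumbens, the 60th percentile filter gave 1997 higher and 5809 lower of 12417 probe sets. Quantile normalization gave 6097 higher and 5263 lower of 18625 there. The list counts were not taken in either setting.

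Among the 8 Gq signalling genes, 4 rose and 1 fell in frontal cortex, and 2 fell there without the 7 arrays. Plcb4, a phospholipase C of this pathway, was 2.92-fold higher there (1.55 ± 0.09, adjusted p = 5.41e-20), the region in which Grm5 was lower. In striatum, where Grm5 was highest, 3 rose and 1 fell. Itpr1, the calcium release channel opened by inositol trisphosphate, was 1.30-fold higher in striatum (0.38 ± 0.05, adjusted p = 1.07e-08) and 1.54-fold lower in amygdala (-0.62 ± 0.05). Prkca, a protein kinase C, was higher in hippocampus (0.53 ± 0.09, adjusted p = 1.01e-06) and lower in striatum (-0.36 ± 0.09).

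Of the 8 Gi/o signalling genes tested, 3 rose and 3 fell in striatum. Adcy5, the main striatal adenylyl cyclase and a target of Gi/o inhibition, was 2.84-fold higher there (1.51 ± 0.13, adjusted p = 1.15e-13) and lower in frontal cortex (-0.83 ± 0.13) and hippocampus (-0.87 ± 0.13). Adcy8, a cyclase driven by calcium, was 2.53-fold higher in amygdala (1.34 ± 0.12, adjusted p = 7.91e-13) and lower in striatum (-1.18 ± 0.12). In accumbens 1 rose and 5 fell, among them Kcnj6, a potassium channel opened by Gi/o proteins (-0.92 ± 0.13, adjusted p = 7.62e-08). Kcnj6 was higher in hippocampus (0.85 ± 0.13) and frontal cortex (0.60 ± 0.13).

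Of the 11 scaffold genes, 10 fell in accumbens (38.9% of all tested probe sets) and none rose, with a median of -0.29 against -0.05 over all tested probe sets. Shank3, a scaffold of the postsynaptic density, was lower there (-0.64 ± 0.05, adjusted p = 2.34e-15) and 1.86-fold higher in striatum (0.90 ± 0.05, adjusted p = 1.46e-20). Homer proteins tie group I receptors to calcium stores. Homer1 was 1.69-fold higher in frontal cortex (0.75 ± 0.05, adjusted p = 9.72e-19) and lower in hippocampus (-0.43 ± 0.05) and amygdala (-0.34 ± 0.05). Homer3 was 3.03-fold higher in hippocampus (1.60 ± 0.19, adjusted p = 1.24e-09) and lower in frontal cortex (-0.73 ± 0.19).

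Of the 10 genes of glutamate supply and clearance, 2 rose and 7 fell in striatum, and 6 rose and 1 fell in hippocampus. Slc17a7 and Slc17a6 encode the transporters that load glutamate into synaptic vesicles of, mostly, cortical and subcortical neurons. Slc17a7 was 2.55-fold higher in striatum (1.35 ± 0.17, adjusted p = 9.75e-10) and 1.97-fold lower in accumbens (-0.98 ± 0.17, adjusted p = 2.14e-06). Slc17a6 was 2.65-fold higher in amygdala (1.41 ± 0.13, adjusted p = 2.61e-12) and lower in striatum (-1.29 ± 0.13) and frontal cortex (-1.21 ± 0.13). A list of 5 thalamic markers had medians of 9.34 in amygdala, 9.30 in accumbens, 9.01 in striatum, 8.98 in hippocampus and 8.90 in frontal cortex. Slc17a6 was also higher in hippocampus (0.77 ± 0.13), where that list was low. The part of thalamic tissue in the Slc17a6 values was not tested. Slc17a7 marks cortical neurons, and the cortical marker list was also high in the arrays labelled striatum (9.59 to 9.92) against 8.69 to 9.08 in accumbens. Its part in the striatal values was not tested.

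The genes most like each receptor were taken as the 3 with the highest Pearson correlation over the 60 arrays, as a description of arrays that share animals and regions. For Grm2 they were Cyth3 and Tspan17 (r = 0.93 each) and Fezf2 (0.92), a transcription factor of deep-layer cortical neurons. For Grm4 they were Ptpn7, Kcnh4 and Inf2 (0.91 each), and for Grm3 Dusp3, Arhgap5 (0.88 each) and Mgll (0.85), which encodes an enzyme that breaks down an endocannabinoid. Grm5 1393665_at was followed most closely by Gabbr1 (0.89), which encodes part of the metabotropic GABA receptor, and by U2af2 and Tnrc6b (0.87 each), and Grm8 1371242_at by Klrk1 (0.87), Fkbp2 and Pkmyt1 (0.86 each).

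For Grm7 the closest were Zmym2 (0.97), Psmd8 and Hnrnpa3 (0.96 each). These fell to 0.89, 0.87 and 0.85 over the 53 arrays without the 7 that stand apart.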

How the data were processed

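Per the labels' protocols, RNA of each rat was extracted with Trizol, labelled with biotin and hybridized separately. The deposited values are log2 probe set summaries, between 4.58 and 16.01, and the authors' background correction and normalization are not given in the sources used here. Array medians lay between 8.23 and 8.35. The 57 control probe sets were left out, as were those with a mean below the 40th percentile (7.68). Symbols came from the array's platform annotation.

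Fits were made in limma 3.58.1 (R 4.3.3), and figures in matplotlib 3.10.9 (Python 3.11.15). Line differences (congenic minus NP) were fitted with limma on the mean of the 5 regions of each animal and on the 12 arrays of each region. Regions were compared, and the interaction tested, on 60 arrays with the animal as a fixed block, since the labels give each region its animal number. The mean correlation of deviations from the group means was 0.0139 for 120 array pairs within an animal and -0.00627 for 600 between animals. Tests were 2-sided, adjusted by Benjamini-Hochberg over all 18625 probe sets, and called at 0.05. The intervals are 95% intervals. Arrays give no depth, and 6 animals a line limit the precision.

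After seeing the data, an alternative was added that drops the 7 arrays whose median correlation with their region's arrays was below 0.98 or whose profile correlation was below 0.5. Members and gene lists were chosen with earlier results of these data known. Genes named are all members, the highest and lowest called gene of each pathway list in a region contrast, as far as shown, and the 3 closest to each receptor by correlation. The analysis was tested on simulated data with known differences. A line difference of 0.3 log2 was recovered for 88.1% of changed probe sets in the mean over regions. In single regions it was recovered for 26.9% to 41.8%, and at 0.5 for 74.6% to 85.1%. The simulation gave each probe set the same spread in every region and held no arrays that stand apart. These shares therefore do not rank the regions, nor do they cover the effect of such arrays. An interaction of 0.3 was recovered for 14.9%. Line differences of about 0.3 in a single region can thus go uncalled.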

Additional observations from a re-analysis of the deposited data

Results flagged for a closer look

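In 19 of 90 groups of 6 arrays (9 probe sets, 5 regions, 2 lines), 1 array lay far from the other 5 relative to the group's range (Dixon's criterion at the 95% level). Chance gives about 4.5 such groups. Of the 19, 16 are on the 7 arrays that stand apart.

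In accumbens, the array labelled congenic 9 was lowest for Grm7 (6.47, others from 9.05), for Grm8 1369391_at (6.84), for Grm5 1369355_at (7.60), for Grm5 1393665_at (8.02) and for Grm3 (10.98). Also in accumbens, NP 8 was lowest for Grm4 (7.15, others from 8.03). In hippocampus, NP 8 was lowest for Grm2 (8.39, others from 9.48) and highest for Grm4 (8.29) and for Grm8 1369391_at (8.37).

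The hippocampus array labelled NP 11 was lowest for Grm5 1369355_at (7.93) and 1393665_at (9.30) and for Grm7 (9.20). The array labelled hippocampus congenic 3 was lowest for Grm2 (8.79) and highest for Grm8 1371243_at (7.21). The array labelled amygdala congenic 3 was lowest for Grm8 1369391_at (7.30) and highest for 1371242_at (9.92).

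The other 3 are on arrays that resemble their region. They are Grm3 in accumbens NP 7 (10.77, others from 11.47), Grm7 in striatum congenic 4 (8.61, others from 9.05) and Grm8 1369391_at in striatum NP 12 (8.63, others up to 8.43).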

How the results depend on the processing

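No member was called between the lines in the mean, in any region or for the interaction with quantile normalization, centring on array medians, no filter, a 60th percentile filter, leaving out each animal, or leaving out the 7 arrays. With animals 1 to 8 and 9 to 12 as a block none was called in the mean or in any region, and with the animal as a random block over all arrays none in any region; the interaction was run in neither setting, nor was the mean with the random block. For regions, with the replicate (animal) block left out or made random the counts stayed at 6 in striatum, 4 in hippocampus, 4 in amygdala, 7 in accumbens and 7 in frontal cortex. The pairs of regions called over all members went from 54 to 55 in both fits without the fixed block, so the pairing changed no count of calls by over 1.5 times. The amygdala count ranged from 2 to 6 when single animals or arrays were left out, and was 2 without animal 5, animal 6 or the array amygdala NP 6. The hippocampus count was 8 without the 7 arrays. The 60th percentile filter (8.93) leaves 5 of the 8 to test, and gave 4 in frontal cortex, 2 in hippocampus and 33 pairs of regions.

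Some differences near 0 changed sign, none of them called; within single regions the lines were followed by the brightest probe set of each gene. Without the 7 arrays these were Grm8 1371242_at in the line mean (-0.0072), and in the lines Grm2 (0.18) and Grm3 (0.11) in accumbens and Grm5 1393665_at in hippocampus (-0.19). Grm5 1369355_at in amygdala against the other regions was -0.11. With quantile normalization they were Grm2 in accumbens (0.0088) and Grm5 1393665_at in hippocampus (-0.0069) between the lines, and Grm5 1369355_at in amygdala (-0.024) and Grm2 in striatum (0.066) against other regions. Centring on array medians gave Grm2 0.016 and Grm3 0.0033 in accumbens between the lines. The cause was not tested.

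With single animals or arrays left out, the line difference ranged from -0.030 to 0.026 for Grm2 and from 0.0036 to 0.031 for Grm8 1371242_at in the mean over regions. In accumbens it ranged from -0.15 to 0.20 for Grm2 and from -0.15 to 0.067 for Grm3. In hippocampus the ranges were -0.12 to 0.23 for Grm2, -0.067 to 0.018 for Grm3, -0.061 to 0.19 for Grm4, -0.12 to 0.097 for Grm5 1393665_at and -0.0082 to 0.082 for Grm7. In striatum they were -0.093 to 0.022 for Grm4, -0.018 to 0.19 for Grm5 1393665_at, -0.044 to 0.080 for Grm7 and -0.014 to 0.033 for Grm8 1371242_at. Against other regions they were -0.072 to 0.0087 for Grm5 1393665_at and -0.035 to 0.041 for 1369355_at in amygdala, and -0.037 to 0.021 for Grm2 in striatum.

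A permutation test adjusted over the members alone, though planned, was not run, and one adjusted over all probe sets took its place. The number of animals limits all line differences, and the arrays give no measured background here.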
